A study of Mus musculus with 8 samples.

Results

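Cytosolic ribosomal protein genes encode the protein parts of the ribosome that translates messenger RNA in the cytoplasm. They were taken here as genes named Rpl or Rps with a number and an optional A, X or L form, together with the P-stalk genes and Rpsa, without Rps6k kinases and pseudogenes, and 49 of 18193 measured genes fitted this rule. Forms written a1 (Rps3a1) and l1 (Rpl7l1, Rpl22l1) were counted as A and L forms. Expression was measured on arrays of LSK cells, the lineage-low, Sca1-positive, cKit-high fraction that holds haematopoietic stem and early progenitor cells, sorted from mice of a source tissue the labels do not name. All mice were of strain C57BL/6, 4 of them wild type and 4 heterozygous for Jak2V617F, which makes Jak2, the kinase that relays signals of cytokine receptors, constantly active, with 1 array a mouse as the labels word it. The sources used here give neither the age of the mice nor how the mutant allele was switched on, and the series' title calls its expression physiological. No cytosolic ribosomal protein gene was called different between the genotypes by limma's moderated test after adjustment over all genes. The lowest differences were those of Rpl7l1 and Rpl22l1, both paralogues of core ribosomal genes. These 2 of 49 members were lower with an unadjusted limma p under 0.05, as were 5.23% of all genes. Other probe sets of Rpl7l1 did not carry its difference, and 4 of the 6 paralogue forms were above 0.

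The ribosome is built from a small subunit, which reads the messenger RNA, and a large subunit, which joins the amino acids. Cells make each core protein in matched amounts, and their messenger RNAs often begin with a pyrimidine tract, the 5′ TOP motif, through which the kinase mTOR sets their translation. Blood formation is sensitive to this supply, since loss of 1 copy of several of these genes causes Diamond-Blackfan anaemia, a failure of red cell production. Other members have paralogues that replace the core protein in some tissues.

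Of 77 core ribosomal protein names, 43 had at least 1 probe set that named no other gene, and 6 members were paralogue forms. The other 34 core genes were not measured singly, and 27 of these appeared on probe sets shared with a pseudogene or another gene. Rplp1, Rpl3, Rpl5, Rpl23 and Rpl36a were among these 27. Each gene was read by its brightest singly named probe set, and 34 of the 49 chosen probe sets had names in _s_at, _x_at or _a_at, which the maker uses for probes shared between transcripts or between related genes. What such probes read is uncertain for members with near-identical pseudogenes. Levels below are log2 intensities of a probe set and were not read as amounts of RNA that can be set between genes.

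Start sites of members are shown for the genes on which the results turn and for core genes with a clear pyrimidine tract, read from RefSeq promoters of GRCm38.p6. Each line gives 30 bases, of which 15 lie before the annotated start, and capitals mark the longest run of at least 5 pyrimidines that begins with C within 10 bases of the start on either side, or the first where runs tie.

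Rpl35 (chr2:39005117-39005146, minus strand): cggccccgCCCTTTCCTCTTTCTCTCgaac

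Rps18 (chr17:33955651-33955680, minus strand): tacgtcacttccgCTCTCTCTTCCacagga

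Rps6 (chr4:86857353-86857382, minus strand): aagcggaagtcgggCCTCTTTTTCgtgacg

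Rps27 (chr3:90213634-90213663, minus strand): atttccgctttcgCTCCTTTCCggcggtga

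Rpl38 (chr11:114668565-114668594, plus strand): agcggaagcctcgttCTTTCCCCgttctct

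Rpl22 (chr4:152324421-152324450, plus strand): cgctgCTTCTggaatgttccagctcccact

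Rpl22l1 (chr3:28805493-28805522, plus strand): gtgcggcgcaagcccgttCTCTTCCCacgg

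Rpl7l1 (chr17:46782642-46782671, minus strand): gtgaggctgcgcaagcgcagtagctgaagc

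A promoter entry matched 43 of the 49 members. Such a run lay within 10 bases of a start in 27 of the 43 (62.8%), against 36.4% of 14452 measured genes with a promoter, where a gene with several starts counted if any of them held it. A C at the annotated start itself followed by at least 4 pyrimidines, whether or not the run began earlier, was found in 8 of the 43 (18.6%) against 2.93%. The letters CCGGAAG, searched on both strands over 250 bases before and 50 after the start, occurred in 21 of the 43 (48.8%) against 15.0%. The reverse strand of these letters holds pyrimidines that can overlap the tract. Rpl22l1 had a tract of 8 bases beginning at base 4 of the annotated transcript, the longest run near the first annotated start of Rpl22 was of 5 bases, and no tract was found in the window of Rpl7l1. These counts describe letters near annotated starts and were not related to the array values.

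No member passed the adjusted threshold of 0.05 in limma's moderated test, over all genes. Across all genes the share called was 0.165% (30 of 18193). An unadjusted p under 0.05 was found for 0 members with a higher and 2 with a lower level in mutant cells, against 11.9% and 5.23% of all genes. The median difference over the 49 members, mutant minus wild type, was -0.01 on the log2 scale, with 19 members above 0 and 30 below. Over all genes the median was 0.05, with 11395 above 0 and 6796 below. With each array centred on its median, 12 of the 49 members were above 0 and 37 below, with a median of -0.03. Over all genes 10630 were then above 0 and 7563 below, with a median of 0.04. The split of the members thus depends on the scaling for members near 0, Rpsa and Rpl35 among them. The differences of the members ran from -0.19 for Rpl7l1 to 0.31 for Rpl3l, and 39 of the 49 had a 95% interval within 0.25 of 0 on either side. The plot of differences orders the members by level.

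**Figure D1:**
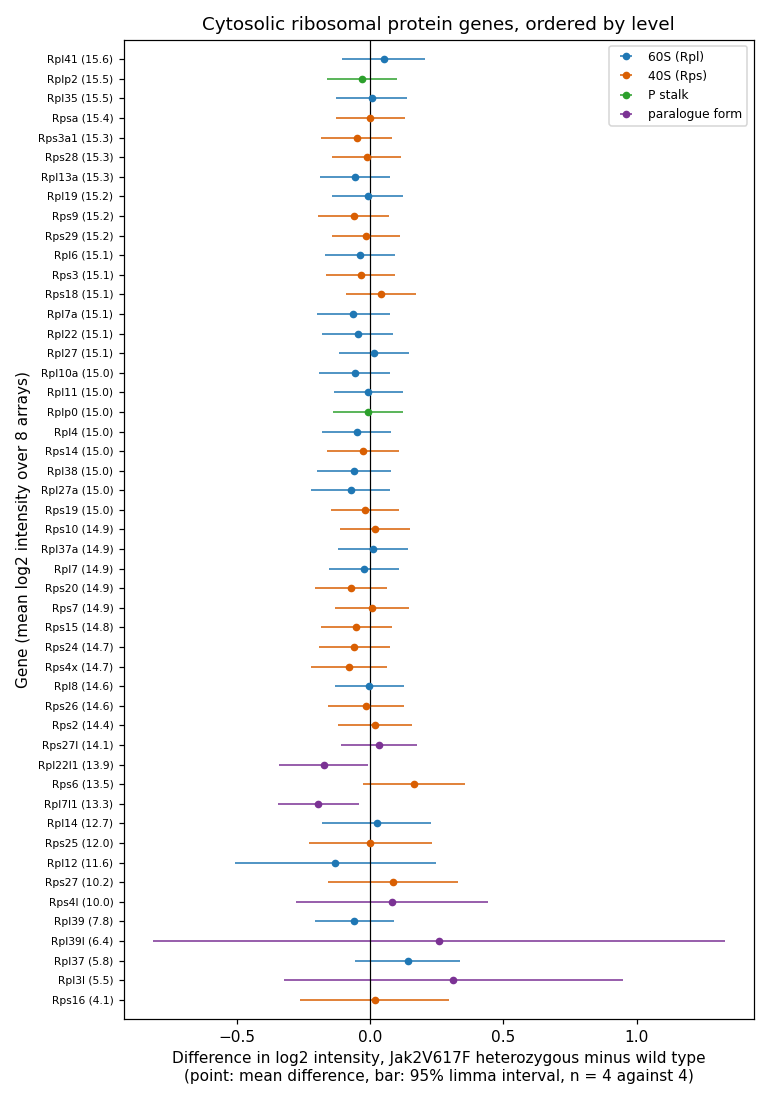
Difference in log2 intensity (horizontal axis, mutant minus wild type) for each of the 49 members, ordered by mean log2 intensity of the chosen probe set (in brackets). Points are means of 4 against 4 arrays and bars are 95% limma intervals. Most points lie within 0.1 of 0, the intervals of Rpl7l1 and Rpl22l1 lie below 0, and those of Rpl39l and Rpl3l are the widest.

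The 4 mutant arrays lay wholly above the 4 wild type arrays for 0 members and wholly below them for 6 (12.2%). These shares were 6.82% and 3.33% over all genes. The 6 members were Rpl7l1, Rpl22l1, Rpl4, Rps3, Rps3a1 and Rps9. The gap between the lowest wild type and the highest mutant value was 0.11 for Rpl7l1, 0.03 for Rpl22l1, 0.01 for Rpl4, 0.0089 for Rps3a1, 0.0012 for Rps3 and 0.0005 for Rps9, all on the log2 scale. For Rpl7l1 the gap was larger than the SD of either group, and for the other 5 it was smaller than the SD of both. With each array centred on its median 4 members lay wholly lower (3.50% of all genes). Without wild type array 4 the counts were 2 higher and 12 lower (10.9% and 5.06% of all genes). Without mutant array 2 there were 1 and 10 (11.7% and 5.02%), and without mutant array 3 there were 0 and 11 (10.7% and 5.88%). Among the 5 arrays with male expression there were 1 and 17 (24.4% and 14.2%).

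Paralogue forms, which are relatives of core genes encoded at other loci, held the 2 members with the smallest p. Rpl7l1 encodes a relative of the large subunit protein Rpl7. Its wild type arrays read 13.32, 13.34, 13.50 and 13.34 and its mutant arrays 13.21, 13.22, 13.15 and 13.15. All mutant values lay below all wild type values, with a difference of -0.19 ± 0.067 (SE, n = 4 each) or 1.14-fold (limma adjusted p = 0.22, unadjusted p = 0.0179). The difference was not carried by its other probe sets, at 0.07 ± 0.083 and 0.0035 ± 0.071 (SE), and averaging the probe sets gave -0.04 with a limma adjusted p of 0.743.

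Rpl22l1 encodes the paralogue of Rpl22, an RNA-binding large subunit protein needed for early T cell development. It read 14.02, 14.04, 14.05 and 13.94 in wild type and 13.90, 13.86, 13.91 and 13.68 in mutant cells. The groups did not overlap, and mutant array 4 was the lowest. The difference was -0.17 ± 0.073 (SE) or 1.13-fold (limma adjusted p = 0.275, unadjusted p = 0.0414), from a single probe set. Rpl22 itself averaged 15.11 ± 0.03 and 15.06 ± 0.02 (SD, n = 4 each) in the same order, a difference of -0.05 ± 0.058 (SE). Its other probe sets differed by 0.01 and -0.15, and the latter had no overlap between groups.

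Rps27l, a paralogue of Rps27 that p53 induces, was at 14.06 ± 0.01 and 14.09 ± 0.07 (SD, n = 4 each). Its difference of 0.03 ± 0.063 (SE) lay within the spread. Rps27 differed by 0.09 ± 0.11 (SE), by 0.02 without wild type array 2 and by -0.0034 without mutant array 2, and a bright probe set that it shares with another gene differed by -0.02. Rps4l differed by 0.08 ± 0.16 (SE) and by -0.07 without wild type array 3. Rpl39l, best known from the testis, read from 5.47 to 7.51 in wild type and from 5.93 to 7.43 in mutant arrays, so that the groups overlapped almost wholly. Rpl3l, the form of Rpl3 in heart and skeletal muscle, read 5.31, 5.26, 5.62 and 5.31 in wild type and 5.08, 5.24, 6.51 and 5.92 in mutant cells. Its difference of 0.31 ± 0.28 (SE) came from mutant arrays 3 and 4, and the other mutant values lay below every wild type value. Without mutant array 3 it was 0.04, and male arrays alone gave -0.05. Of the 6 paralogue forms, 4 were above 0 and 2 below, and none was called.

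**Figure D2:**
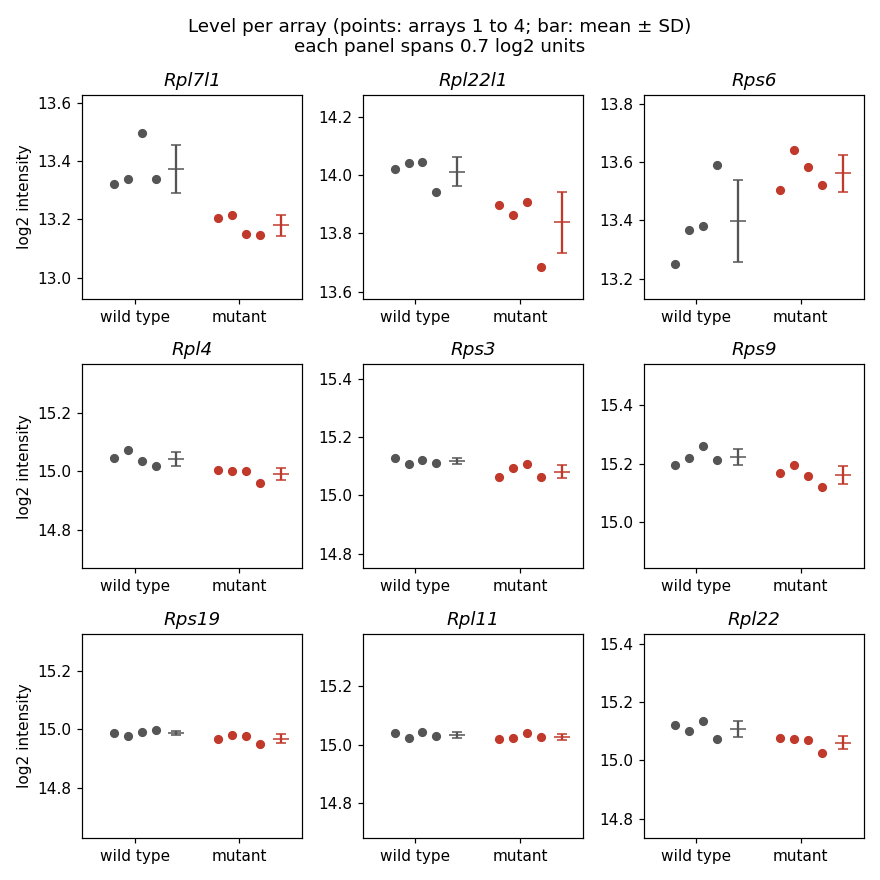
Log2 intensity (vertical axis, each panel spanning 0.7 units) of 9 members in wild type (grey) and mutant (red) arrays, with points for arrays 1 to 4 and bars for mean ± SD. Mutant points lie below wild type points for Rpl7l1, Rpl22l1 and Rpl4 and, by gaps of only 0.0012 and 0.0005, for Rps3 and Rps9. The groups are close together for Rps19 and Rpl11.

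Of the small subunit genes 21 were measured apart from paralogues, 9 with a difference above 0 and 12 below, with a median of -0.01 and none called. Rps6 encodes the protein phosphorylated by S6 kinase downstream of mTOR. Its arrays read 13.25, 13.37, 13.38 and 13.59 in wild type and 13.50, 13.64, 13.58 and 13.52 in mutant cells. Only wild type array 4 reached the mutant range, and the difference was 0.16 ± 0.085 (SE; limma adjusted p = 0.348). A dim second probe set of Rps6 differed by 0.44 ± 0.25 (SE). The 4 bright probe sets that Rps6 shares with a pseudogene went the other way, with differences from -0.09 to -0.03, and male arrays alone gave 0.07 for the chosen probe set.

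Rps19, the gene most often mutated in Diamond-Blackfan anaemia, read 14.99, 14.98, 14.99 and 15.00 in wild type and 14.97, 14.98, 14.98 and 14.95 in mutant cells. The groups overlapped, and the difference of -0.02 had a 95% interval from -0.15 to 0.11. Rps14, whose human counterpart is lost in the 5q- syndrome, differed by -0.03 (95% interval from -0.16 to 0.11). Of the 19 genes fixed as a list for these 2 disorders 12 were measured, 5 above 0 and 7 below, with differences from -0.06 for Rps24 to 0.09 for Rps27 and 0 called. Another Rps24 probe set, at a lower level, averaged 11.28 ± 0.20 and 10.88 ± 0.20 (SD, n = 4 each), a difference of -0.39 ± 0.13 (SE) with overlapping groups, while the 4 bright Rps24 probe sets differed by -0.04 to -0.07.

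Rps3, a protein of the messenger RNA entry site that also takes part in DNA repair, was at 15.12 ± 0.01 and 15.08 ± 0.02 (SD, n = 4 each). A less bright probe set of Rps3 stood at 12.87 ± 0.11 and 12.57 ± 0.14, with no overlap and a difference of -0.30 ± 0.095 (SE). Rps9 was at 15.22 ± 0.03 and 15.16 ± 0.03. Its other probe sets differed by -0.15, with no overlap, and by 0.10. Rps3a1 differed by -0.05 ± 0.059, Rps20 by -0.07 ± 0.06 and Rps18 by 0.04 ± 0.058 (SE). Rpsa, the laminin receptor precursor of the small subunit, stood at 15.40 in both genotypes. The X-linked genes Rps4x and Rpl39 differed by -0.08 ± 0.063 and -0.06 ± 0.065 (SE), the first with values from 14.70 to 14.79 in wild type and from 14.58 to 14.70 in mutant arrays. With probe sets averaged the direction turned for Rps4x (0.05), Rps20 (0.03) and Rps18 (-0.06), and Rps6 stood at 0.30.

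Of the large subunit genes 22 were measured with the P stalk included, 6 above 0 and 16 below, with a median of -0.03 and none called. Rpl11, which with Rpl5 and the 5S RNA binds Mdm2 and so stabilises p53 when ribosome assembly fails, read 15.04, 15.02, 15.04 and 15.03 in wild type and 15.02, 15.02, 15.04 and 15.03 in mutant cells. The difference of -0.0064 had a 95% interval from -0.13 to 0.12. Rplp0 and Rplp2, of the stalk that recruits translation factors, differed by -0.0077 ± 0.058 and -0.03 ± 0.058 (SE). Rpl4 read 15.05, 15.07, 15.04 and 15.02 in wild type and 15.00, 15.00, 15.00 and 14.96 in mutant cells. Its groups were separate by a narrow margin, with a difference of -0.05 ± 0.058 (SE). Rpl38, whose loss alters translation of Hox messenger RNAs in the embryo, differed by -0.06 ± 0.061, Rpl27a by -0.07 ± 0.066 and Rpl7a by -0.06 ± 0.06 (SE), of which Rpl27a turned to 0.04 with probe sets averaged. Rpl41 and Rpl35, read by some of the brightest probe sets of the array, differed by 0.05 ± 0.069 and 0.0058 ± 0.059. The probe sets taken for Rps16 (4.11 and 4.12 in wild type and mutant cells), Rpl37 (5.72 and 5.86) and Rpl39 (7.80 and 7.74) were dim, while brighter probe sets for these genes carried further gene names and were not used.

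Most members were read near the top of the intensity scale. The chosen probe set averaged 14 or more in 36 of the 49 members, a limit set after the levels were seen, and 35 lay within the brightest 1% of genes. The highest value on any array ran from 15.53 to 15.75. Differences of the 36 ran from -0.08 for Rps4x to 0.05 for Rpl41, with 10 above 0 and 26 below, and all 36 intervals lay within 0.25 of 0. Among 229 other genes as bright, 114 were above 0, 115 below and 0 called. The median absolute difference over all genes was 0.11 at levels from 10 to 12, 0.08 from 12 to 14 and 0.04 from 14. Whether a ceiling of the scale or the normalisation narrowed the differences of the members was not tested. The 13 members below 14 had a median difference of 0.02, with 9 above 0. For several of these 9, bright probe sets shared with other genes lay below 0. They differed by -0.06 and -0.04 for Rps16, -0.06 and -0.13 for Rpl37, -0.04 for Rps25 and -0.02 for Rps27. Those of Rps6 differed by -0.09 to -0.03, and those of Rpl14 stayed above 0, at 0.01 to 0.05.

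**Figure D3:**
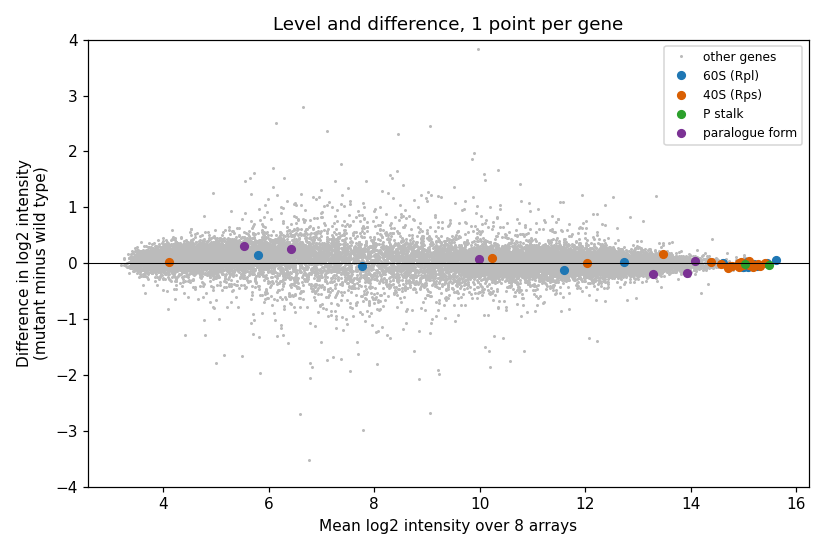
Difference in log2 intensity (vertical axis, mutant minus wild type) against mean log2 intensity (horizontal axis) for 18193 genes, with the 49 members in colour. Most members crowd at the bright end, where the differences of all genes narrow.

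Because the spread between mice was small for bright genes, the test depended on how that spread was estimated. With a single prior for all genes the median SE over the members was 0.059, and with a prior that follows the level it was 0.029. Under the latter 0 members were called, against 0.412% of all genes, and the smallest limma adjusted p was 0.124, for Rpl7l1. An unadjusted p under 0.05 was then found for 1 member above 0, Rps6, against 11.1% of all genes, and for 6 below 0, against 6.07%. The 6 were Rpl7l1, Rpl22l1, Rps20, Rps9, Rps4x and Rpl13a.

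The 110 probe sets that named a member symbol together with other genes gave no value to a single gene. Of these 79 averaged 14 or more, with differences from -0.14 to 0.07, a median of -0.03 and 59 below 0. The less bright ones had differences from -0.56 (Rps19, with overlapping groups) to 0.60 (Rpl17). The mutant arrays lay wholly below the wild type arrays for 18 of the 110 and wholly above for 2, while over 45037 probe sets these shares were 4.66% and 5.52%. The 110 carried 44 gene names of the rule and the 18 carried 14, so that several probe sets repeat a gene.

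Ribosomal RNA, the other part of the ribosome, was read by the array's control probe sets for 18S RNA. The middle probe set read 13.71, 13.50, 13.58 and 13.15 in wild type and 13.11, 12.80, 12.50 and 12.36 in mutant cells. All mutant values lay below all wild type values, with a difference of -0.79. An exact permutation test, two-sided, gave p = 0.0286, the smallest that 4 arrays against 4 allow, and 0.257 after adjustment over the 9 control probe sets tested. In the 5′ probe set the means were 9.49 ± 0.40 and 8.48 ± 0.51 (SD), and the same exact permutation test gave p = 0.0571. In the 3′ probe set they were 9.25 ± 0.19 and 8.64 ± 0.38 (SD; exact permutation p = 0.0857), and both had overlapping groups. Control probe sets for Gapdh and beta-actin differed by -0.05 to 0.04. The mean over the 49 members lay from 13.61 to 13.65 in wild type and from 13.59 to 13.64 in mutant arrays. How much ribosomal RNA entered the amplified cDNA of each sample was not tested.

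**Figure D4:**
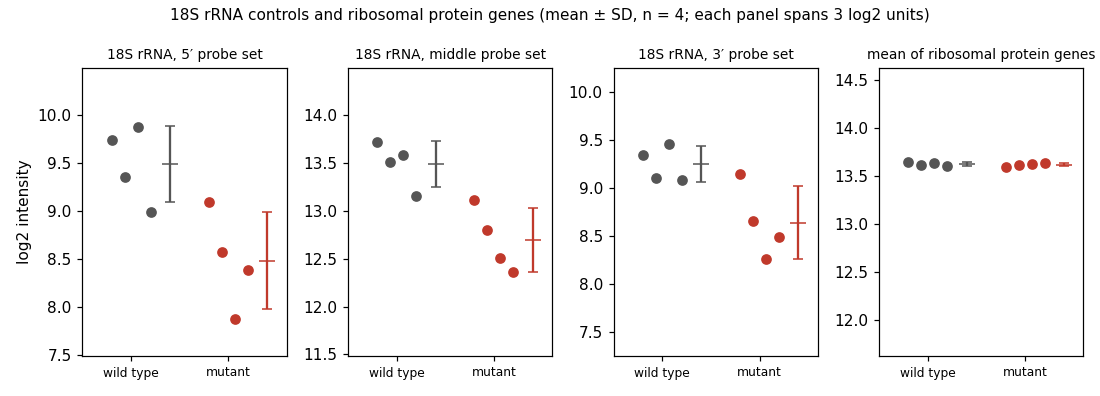
Log2 intensity (vertical axis, each panel spanning 3 units) of the 18S RNA control probe sets and of the mean over the 49 members, in wild type (grey) and mutant (red) arrays, with mean ± SD. The middle 18S probe set is lower in every mutant array than in every wild type array, and the mean of the ribosomal protein genes overlaps between genotypes.

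Related parts of the translation machinery also held no called gene. Of 76 mitochondrial ribosomal protein genes 71 were above 0 and 5 below, with a median of 0.10, and 12 had an unadjusted p under 0.05, all above 0. Of 49 ribosome biogenesis genes 39 were above 0 and 10 below, with a median of 0.08, and 4 had an unadjusted p under 0.05, all above 0, where 11.9% of all genes did. These 4 were Taf1b, of the RNA polymerase I initiation factor (0.37 ± 0.074, SE; limma adjusted p = 0.0921), Utp14a (0.29 ± 0.098), Nip7 (0.23 ± 0.092) and Pes1 (0.20 ± 0.081). With probe sets averaged Utp14a stood at 0.11 and Pes1 at 0.02. The cytosolic members, with 19 of 49 above 0, were not tested against these lists, and the brightness of the lists differed, with median levels of 14.95 for the cytosolic members, 12.51 for the mitochondrial and 12.61 for the biogenesis genes.

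Of 20 other genes with 5′ TOP messenger RNAs, mostly translation factors, 10 were above 0 and 10 below, with a median of 0.0004. Eif3l differed by 0.13 ± 0.068, the tumour protein gene Tpt1 by -0.09 ± 0.063, the elongation factor gene Eef1b2 by -0.09 ± 0.063 and Eif4b by -0.09 ± 0.071 (SE). Fau, whose product is cut to release a small subunit protein, differed by 0.01. A list of regulators of TOP messenger RNAs held 15 measured genes, 10 above 0 and 5 below. Larp4 and Larp7 were counted in it as relatives of Larp1, not for a known role at the TOP motif. Larp1, which binds the TOP motif, differed by -0.10 ± 0.069, Larp4 by -0.19 ± 0.083 and Mtor by 0.21 ± 0.11 (SE). Larp7 differed by 0.14 ± 0.067 (SE) and was wholly higher. Of 10 chaperones of ribosomal proteins 9 were above 0, with Pdcd2 at 0.12 ± 0.069, Pdcd2l at 0.11 ± 0.068, Ltv1 at 0.21 ± 0.13 and Tsr2 at 0.17 ± 0.11 (SE), the last turning to -0.02 with probe sets averaged.

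The arrays carried markers of the sorted cells in both genotypes. A list of 9 measured genes held Kit, by which the cells were sorted, and markers of stem cells or of subsets of LSK cells. Their unlogged intensities were summed before the log2 was taken, so bright genes weigh most. This sum lay from 16.09 to 16.26 in wild type and from 16.10 to 16.28 in mutant arrays. Single genes of this list moved both ways. Cd48 (0.35) and Slamf1 (0.72) stood above 0 and Mecom (-0.34) below with an unadjusted limma p under 0.05, without overlap for Cd48 and Mecom, and Cd34 (-0.12) was also lower without overlap. Kit differed by 0.02, Ly6a, which encodes Sca1, was not measured singly, and none of the 9 was called. The sum over 15 macrophage and dendritic cell markers, on a log2 scale, lay from 13.89 to 14.59 in wild type and from 14.69 to 15.15 in mutant arrays, with all 15 markers above 0. That of 11 granulocyte and monocyte markers lay from 16.69 to 17.01 and from 17.03 to 17.21, with 9 of the 11 above 0. That of 11 erythroid markers lay from 15.47 to 15.82 and from 15.68 to 16.06, with overlap and 10 of the 11 above 0. Bright Car2 (-0.0075) and Hba-a2 (0.01) weigh most in it, while the mean of log2 values was 9.78 in wild type and 10.56 in mutant arrays. Slc4a1 (2.32) and Tfrc (0.75) were wholly higher. Hbb-b2 (1.67), Alas2 (1.52) and Epor (0.55) had an unadjusted limma p under 0.05 with overlapping groups, and no erythroid marker was called. The sums of megakaryocyte, B cell and T and NK cell markers overlapped between genotypes as well. Of 7 megakaryocyte markers all 7 were above 0, 3 with an unadjusted limma p under 0.05, and Itga2b (0.46) did not overlap. Of 7 T and NK cell markers 5 were above 0, with Cd8a (0.25) wholly higher and Cd4 (-0.45) wholly lower, and 3 of 6 B cell markers were above 0. In bulk samples a change in the share of a cell type and a change in RNA per cell cannot be told apart, and the part of these cells in the levels of Rpl7l1 and Rpl22l1 was not tested. The 3′ to 5′ differences of Gapdh, a sign of RNA quality, ran from 0.68 to 0.73 in wild type arrays and from 0.56 to 0.77 in mutant arrays, with mutant array 4 the lowest. For beta-actin that array was the highest, at 0.73. Wild type arrays 1 and 2 and mutant array 3 had female expression of Xist and Y-linked genes. With sex as a covariate 0 members were called.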

How the data were processed

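Total RNA of sorted LSK cells was linearly amplified and read on 8 biotin-labelled Affymetrix arrays, as the labels' protocols say. Deposited values are log2 intensities that the authors made with RMA and the affy package in R 2.11.0, per the submitters' processing notes, with the log2 scale inferred from their range. Quantile normalisation within RMA hides a shift shared by most transcripts. Of 45101 probe sets 64 were controls, 34945 named a single gene through the platform annotation and 932 named several. Entrez identifiers matched RefSeq for 34741, with 0 symbols changed. Each of 18193 genes was read by its probe set with the highest mean. The number of arrays limits the precision.

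Differences, mutant minus wild type, were tested with limma 3.58.1 in R 4.3.3 over all genes, without covariates, two-sided, with Benjamini-Hochberg adjustment and a threshold of 0.05. Members and lists were chosen with earlier results of these data known. Named genes were the 8 members with the smallest p in each direction, the 3 brightest and 3 dimmest, fixed members of known role, and 4 genes of each further list. Other probe sets, Rpl4, Rps3, Rps3a1, Rpl13a, single marker genes and the control probe sets were named after their values were seen. In simulated data for this comparison over 18193 genes with 50 changed at each size, limma recovered 0% of changes of 0.25, 40% of 0.5, 88% of 1 and 100% of 2, with 4 false calls. The changed genes were drawn from all levels, each with its own spread. The median SD within genotype was 0.05 at levels from 14 and 0.09 to 0.21 at lower levels. These shares therefore do not describe the mostly bright members. P-values and SEs of limma join the spread between these arrays with a prior pooled over all genes. For bright members this prior raised the SE, as for Rps29, with SDs of 0.0044 and 0.015 (n = 4 each) and an SE of 0.057. SEs of probe sets not chosen for a gene came from a second limma fit over 45037 probe sets, with its own prior. In that fit the chosen probe set of Rpl7l1 had an SE of 0.073 and an unadjusted limma p of 0.0262. That of Rpl22l1 had an SE of 0.079 and an unadjusted limma p of 0.0536, above 0.05. The closing section lists the alternatives. Correlations of deviations between mice of the same replicate number ran from -0.221 to 0.103. They gave no sign of pairing but cannot exclude it.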

Additional observations from a re-analysis of the deposited data

Results flagged for a closer look

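In 11 of 98 groups of 4 arrays, 1 array stood far from the other 3, by Dixon's ratio above 0.829. Chance flags about 1 in 20 groups. Mutant array 4 was the low array in 5 of them, with Rpl22 at 15.03, Rpl27a at 14.85, Rpl4 at 14.96, Rps3a1 at 15.24 and Rps4x at 14.58, where the nearest mutant values were 15.07, 14.98, 15.00, 15.30 and 14.69. It also had the smallest 3' to 5' difference of Gapdh, 0.56. Wild type array 4 was low for Rpl27a, at 14.96 against 15.05, and high for the dim Rps16 probe set, at 4.39 against 4.04. Wild type array 3 was high for Rpl7l1, at 13.50 against 13.34, and for Rpl3l, at 5.62 against 5.31. Mutant array 2 was low for Rps16, at 3.84 against 4.20, and high for Rps27, at 10.54 against 10.21. Causes of these values were not tested.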

How the results depend on the processing

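No member was called under any of 18 alternatives: the replicate block, median centring, dim genes left out, probe sets averaged, probe sets in _s_at, _x_at and _a_at left out, a trended robust prior, array weights, sex as a covariate, male arrays alone, each array left out, and paralogue forms left out. The median difference of the members kept within its spread except without _s_at, _x_at and _a_at probe sets. There 26 members remained measured and the median was 0.00595. Of these 26, 2 lay wholly lower and 0 wholly higher, against 3.49% and 6.55% of all genes. With median centring 4 members lay wholly lower in place of 6, against 3.5% and 3.33% of all genes. Leaving out 1 array gave 0 to 2 members wholly higher and 6 to 12 wholly lower. Without wild type array 1, 2 or 3 the shares over all genes were 8.02% to 10.4% higher and 4.29% to 5.32% lower. Male arrays alone gave 1 and 17 members, against 24.4% and 14.2% of all genes. Fewer arrays separate more easily, and the shares over all genes rose too. Over all genes, in place of 30 calls, there were 8 under the replicate block, 49 from averaged probe sets, 60 when sex was a covariate and 75 under the trended prior. With an array left out there were 13 to 40, of which 13, 16, 19, 16 and 14 came without wild type arrays 2 and 3 and mutant arrays 1, 2 and 4. The replicate block moved no call of a member. Of 462 values of 28 named members under alternatives, 0 were called and 15 moved by more than the spread, most with other probe sets, among them Rps24 (-0.39), Rps18 (-0.14), Rps20 (0.17) and Rps9 (0.10) without _s_at, _x_at and _a_at. Limma adjusted p ranged from 0.124 to 0.743 for Rpl7l1 and from 0.16 to 0.502 for Rpl22l1. The dim Rps16, Rpl37 and Rpl3l probe sets limit what can be said of these genes.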
